A study of Mus musculus with 4 samples.

Results

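The regions described here are broad domains of H3K27me3, trimethylation of lysine 27 of histone H3, that were found in every library of a CUT&Tag study of mouse germinal center B cells. They were chosen by the peaks themselves. The peaks of the 4 deposited lists on chromosomes 1 to 19 were pooled and merged wherever they overlapped or touched, and a merged region was kept when it overlapped a peak of every list by at least 1 bp and was at least 20 kb long. This gave 1024 domains of 116146 merged regions (0.882%). They made up 3.83% of the 26744 merged regions found in all 4 lists. Every merged region of at least 20 kb was already present in all 4 lists, so the length minimum alone set the membership. Number, length and covered share of the domains are therefore given as descriptions of the peaks that selected them, without a test.

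CUT&Tag uses an antibody to bring a transposase to a chromatin mark, which then cuts and tags the DNA around it. The 4 libraries were made from sorted splenic germinal center B cells, termed pre-plasma in the title of the series, from 4 C57BL/6 mice, each in its own library. KO denotes 2 mice with a knockout of Kdm6b in B cells and WT denotes 2 wild-type mice. All 4 had received sheep red blood cells intraperitoneally, were boosted 5 days later and were killed on day 12, and 1000 to 5000 cells went into a library. What drives the deletion in B cells, which exons it removes, how the cells were gated and how many went into each library is not given in the sources used here, and the replicate numbers serve only as names.

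H3K27me3 is written by Polycomb repressive complex 2 and is bound by Polycomb repressive complex 1, and it marks genes that a cell lineage keeps silent. It is often found in short stretches near CpG-rich promoters, but over clusters of developmental regulators, such as the Hox genes, it spreads into broad domains. Kdm6b, also called JMJD3, is a demethylase that removes methyl groups from this residue.

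Promoter sequences are shown for 5 genes in the domains, because they differ widely in CpG content and include promoters that the libraries shared and promoters that they did not. Each runs 5′ to 3′ on the gene's strand from 250 bases before to 50 bases after the transcription start and comes from the RefSeq annotation of GRCm38.p6, which is the same assembly as mm10. Capitals mark every CG, which reads the same on both strands. The Hoxc4 promoter (chr15:103034145-103034444, plus strand) had 9 CG, the Wnt1 promoter (chr15:98789607-98789906, plus strand) had 26 and the Gata3 promoter (chr2:9878551-9878850, minus strand) had 22. These 3 promoters were covered over 100% of their length by peaks of every library. The Grik3 promoter (chr4:125490446-125490745, plus strand) had 50 CG and was covered only in KO replicate 1, and the Tppp2 promoter (chr14:51918511-51918810, plus strand) had 1 CG and was covered only in WT replicate 1.
Hoxc4: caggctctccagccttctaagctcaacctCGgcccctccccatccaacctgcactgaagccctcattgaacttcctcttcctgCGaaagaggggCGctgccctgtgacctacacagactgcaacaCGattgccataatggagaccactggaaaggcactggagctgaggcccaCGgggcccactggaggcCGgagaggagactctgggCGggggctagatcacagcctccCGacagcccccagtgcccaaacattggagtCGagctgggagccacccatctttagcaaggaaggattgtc
Wnt1: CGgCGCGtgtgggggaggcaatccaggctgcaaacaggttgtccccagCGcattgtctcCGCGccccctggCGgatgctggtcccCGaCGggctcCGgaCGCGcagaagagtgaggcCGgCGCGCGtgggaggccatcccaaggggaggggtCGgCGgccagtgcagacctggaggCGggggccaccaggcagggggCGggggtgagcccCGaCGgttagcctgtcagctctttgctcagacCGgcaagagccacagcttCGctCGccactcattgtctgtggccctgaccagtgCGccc
Gata3: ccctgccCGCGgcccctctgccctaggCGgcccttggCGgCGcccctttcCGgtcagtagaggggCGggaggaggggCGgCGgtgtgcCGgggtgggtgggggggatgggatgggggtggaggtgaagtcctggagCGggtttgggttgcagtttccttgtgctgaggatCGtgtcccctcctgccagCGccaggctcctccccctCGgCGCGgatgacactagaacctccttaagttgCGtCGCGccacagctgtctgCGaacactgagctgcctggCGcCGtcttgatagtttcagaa
Grik3: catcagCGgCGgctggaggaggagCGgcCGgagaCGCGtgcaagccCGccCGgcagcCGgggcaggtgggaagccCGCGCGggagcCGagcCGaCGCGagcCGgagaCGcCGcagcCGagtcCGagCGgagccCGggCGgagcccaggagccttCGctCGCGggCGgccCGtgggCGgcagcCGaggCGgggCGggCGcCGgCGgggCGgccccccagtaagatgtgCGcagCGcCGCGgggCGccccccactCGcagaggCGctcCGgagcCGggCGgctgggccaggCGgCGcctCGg
Tppp2: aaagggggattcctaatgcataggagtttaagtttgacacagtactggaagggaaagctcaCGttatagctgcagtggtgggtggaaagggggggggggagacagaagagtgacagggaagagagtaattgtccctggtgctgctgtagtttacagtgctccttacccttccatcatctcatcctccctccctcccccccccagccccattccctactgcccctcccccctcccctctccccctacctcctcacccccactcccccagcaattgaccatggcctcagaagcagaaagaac

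Mature microRNAs are shown as examples from the Hox clusters and from a family encoded in 2 domains, with the seed (bases 2 to 8) in capitals. miR-196a-5p is encoded by Mir196a-1 in the Hoxb domain and by Mir196a-2 in the Hoxc domain, and it shares its seed with miR-196b-5p of the Hoxa domain. miR-10a-5p of the Hoxb domain and miR-10b-5p of a Hoxd domain share another seed. miR-615-3p lies in the Hoxc domain, within Hoxc5. miR-9-5p is encoded by Mir9-1 and Mir9-3, in domains on chromosomes 3 and 7 without a protein-coding gene.
miR-196a-5p: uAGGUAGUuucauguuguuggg
miR-196b-5p: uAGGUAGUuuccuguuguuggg
miR-10a-5p: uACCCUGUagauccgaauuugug
miR-10b-5p: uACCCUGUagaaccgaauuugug
miR-615-3p: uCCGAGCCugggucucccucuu
miR-9-5p: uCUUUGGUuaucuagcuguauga

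The domains were a small number of regions but a sizeable share of the marked genome. Together they spanned 30.1 Mb, which was 9.86% of the length of all merged regions and 17.1% of the length of the regions found in all 4 lists. Their median length was 26.2 kb, with quartiles at 22.4 and 32.4 kb, against 4485 bp for the 25720 shared regions under 20 kb. Most lay close to the minimum: 442 (43.2%) were 20 to 25 kb long, 244 were 25 to 30 kb, 212 were 30 to 40 kb, 73 were 40 to 50 kb and 53 (5.18%) reached 50 kb or more. The lengths ran on without a break at 20 kb. The regions just below it measured 19974 bp (chr14:55867410-55887383), 19985 bp (chr6:85470654-85490638) and 19986 bp (chr17:34625004-34644989). The domains just above it measured 20003 bp (chr2:156414137-156434139, over Epb41l1, a membrane skeleton gene), 20016 bp (chr2:57099181-57119196, over the nuclear receptor gene Nr4a2) and 20018 bp (chr8:12490581-12510598).

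**Figure D1:**
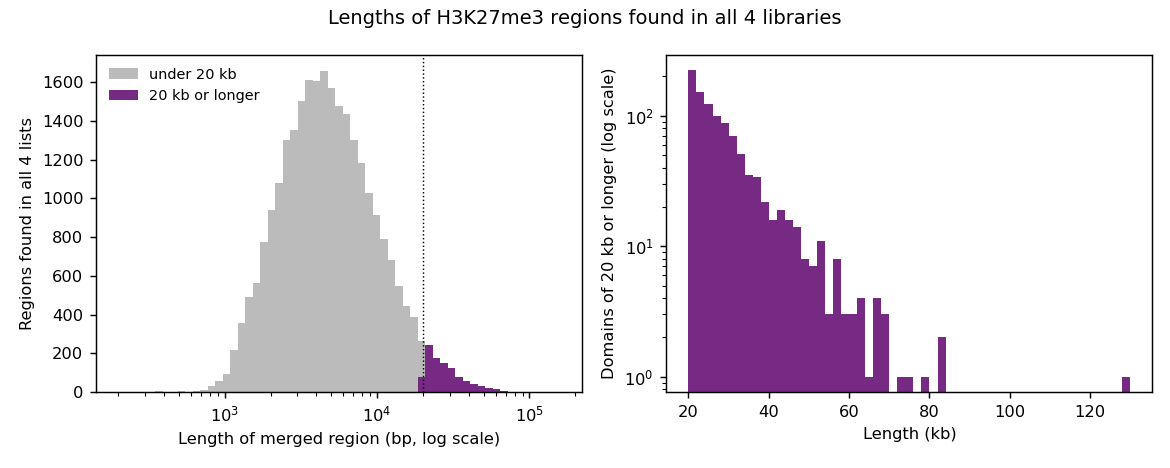
Lengths of merged H3K27me3 regions found in all 4 libraries. Left, number of regions (y) by length in bp on a log scale (x), with the 25720 regions under 20 kb in grey, the 1024 domains in purple and a dotted line at 20 kb; right, the domains alone, by length in kb (x) with their number on a log scale (y). The lengths form a continuous tail, and the Hoxc domain at 128.3 kb stands apart at its end.

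Domains were unevenly spread over the chromosomes. Chromosome 11 held 128 (10.5 per 10 Mb of its annotated span), chromosome 2 held 123 (6.76 per 10 Mb) and chromosome 19 held 49 (7.99 per 10 Mb), whereas chromosome 12 held 21 (1.75 per 10 Mb). These 4 chromosomes had 13.2, 9.79, 11.5 and 5.66 protein-coding genes per Mb. Chromosome 7 had the most, at 13.97 per Mb, but held 77 domains (5.30 per 10 Mb). The domains were often neighbours: 200 (19.5%) had another domain within 10 kb and 510 (49.8%) within 100 kb. Some of these neighbours were separated by a gap of a few bases in the merged peaks. The Hoxc cluster was cut into a domain over Hoxc13 and Hoxc12 (chr15:102898488-102944852) and a domain over Hoxc11 to Hoxc4 (chr15:102944891-103073220), 38 bp apart.

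The longest domains lay over clusters of developmental regulators, over single genes and over sequence without a protein-coding gene. The longest, at 128330 bp, was the Hoxc domain with all 7 of Hoxc11, Hoxc10, Hoxc9, Hoxc8, Hoxc6, Hoxc5 and Hoxc4, transcription factors that pattern the body axis. The peaks of KO replicate 1 covered 98.8% of it, those of KO replicate 2 98.7%, those of WT replicate 1 97.4% and those of WT replicate 2 90.4%. The same stretch was called as 5, 3, 7 and 25 peaks in that order, so WT replicate 2 had the most peaks and the lowest coverage. The second, at 83925 bp (chr11:96242365-96326289), held Hoxb3 to Hoxb9, with coverage of 95.2% and 98.9% for KO and of 92.3% and 80.8% for WT.

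The third domain by length, 82078 bp at chr2:167800589-167882666, overlapped no protein-coding gene but 7 predicted non-coding genes, and the nearest protein-coding gene was Ptpn1, a tyrosine phosphatase gene, 48084 bp away. It was called as 1 peak in KO replicate 2 (100% covered) and in WT replicate 1 (99.4%), as 6 peaks in KO replicate 1 (94.98%) and as 20 in WT replicate 2 (80.4%). The fourth, 79010 bp at chr7:79483322-79562331, held Mir9-3 and its host transcript Mir9-3hg. The fifth, 74631 bp at chr4:115910757-115985387, held Dmbx1, a homeobox gene of the developing brain.

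The sixth, 72999 bp at chr19:10372879-10445877, covered Syt7, a calcium sensor of vesicle release, and was the most divided of all domains with a mean of 13.5 peaks per library. KO coverage of it was 71.4% and 97.8% and WT coverage 93.2% and 55.4%, from 15, 6, 9 and 24 peaks. The next 4 lay over Efna3, Efna4, Adam15, Dcst1 and Dcst2 (chr3:89301115-89371105), over the pancreatic and intestinal homeobox genes Pdx1 and Cdx2 with Urad (chr5:147258246-147327696), over Rasl10b, Gas2l2, Mmp28 and Taf15 (chr11:83405153-83474170), and, without a protein-coding gene, 6716 bp from Rybp, a Polycomb partner gene (chr6:100153994-100221849). In each of these 4 domains KO replicate 2 had the highest coverage (97.7% to 99.7%) and WT replicate 2 the lowest (63.1% to 83.5%).

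**Figure D2:**
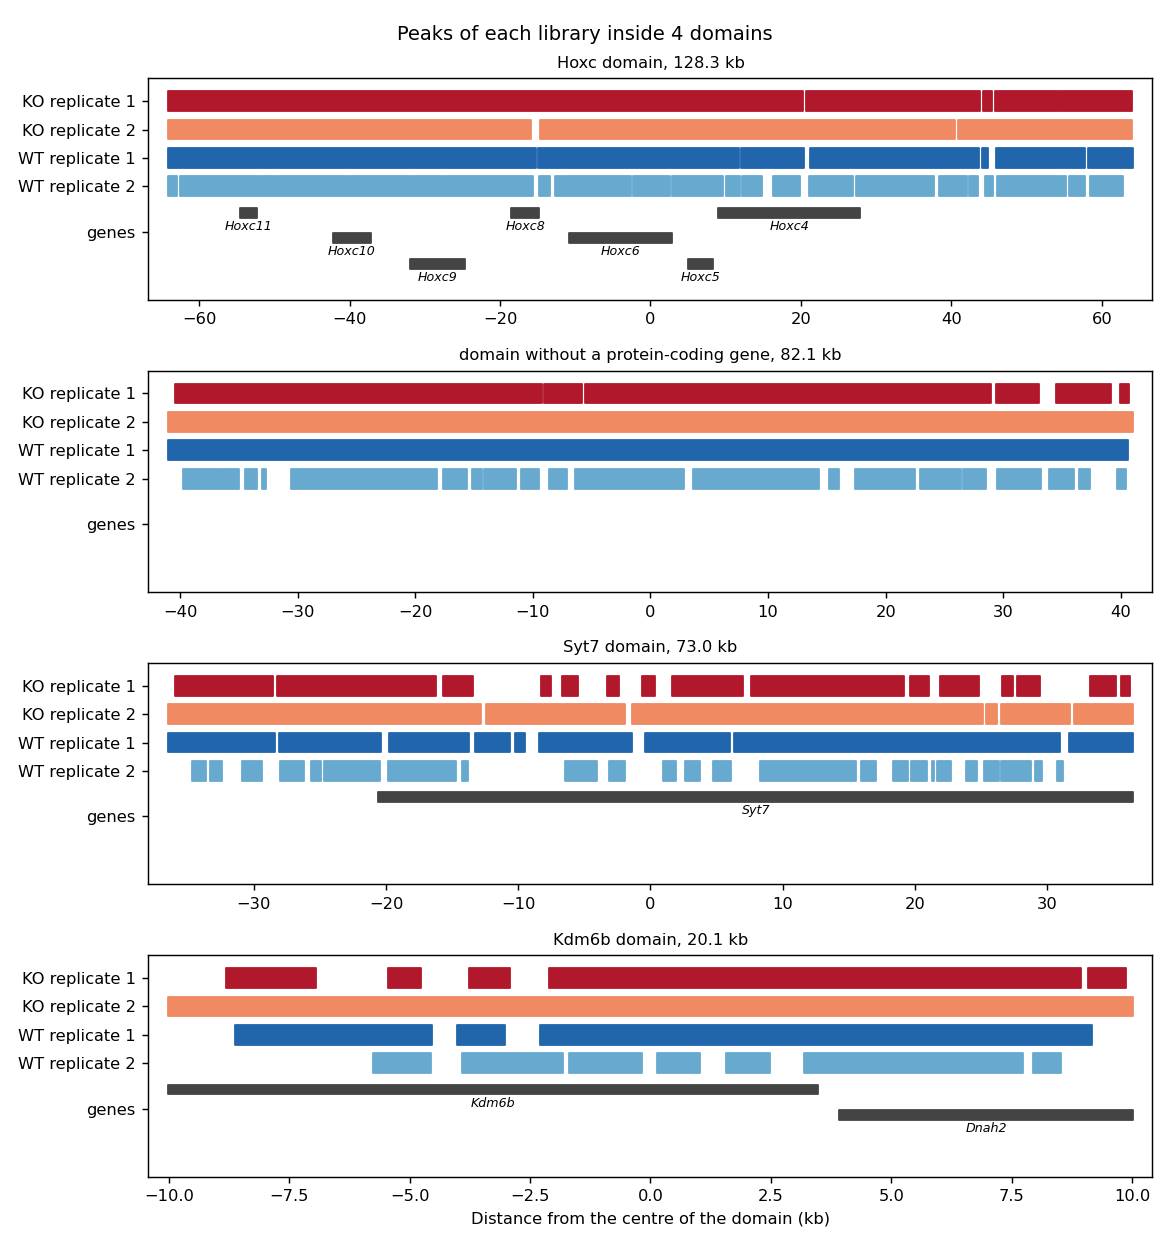
Peaks of each library (coloured bars, 1 row per library) and protein-coding gene bodies (dark grey bars) in the Hoxc domain, the longest domain without a protein-coding gene, the Syt7 domain and the Kdm6b domain, by distance from the centre of the domain in kb (x). The Hoxc domain was nearly filled in all 4 libraries but was called as 25 peaks in WT replicate 2, and the Syt7 domain had gaps in every library.

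The 4 libraries filled the same domains to very different degrees. Over the 1024 domains, KO replicate 1 had a mean covered share of 78.3%, KO replicate 2 of 95.8%, WT replicate 1 of 91.2% and WT replicate 2 of 60.6%. KO replicate 2 was the highest library in 754 domains and WT replicate 1 in 249, while WT replicate 2 was the lowest in 985 (96.2%) and the highest in none. At least 90% of the domain was covered in 204, 940, 673 and 26 domains, in the order KO replicate 1, KO replicate 2, WT replicate 1, WT replicate 2, which is the order of every list of 4 values from here on. Under 50% was covered in 34, 0, 0 and 270 domains. The same order held for the whole lists, which covered 142.6, 233.6, 210.8 and 100.6 Mb of the autosomes with 79756, 89274, 86471 and 81484 peaks. Read depth was unknown, and its part in these differences was not tested.

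The peaks fragmented to match. A domain held a median of 5, 2, 3 and 8 peaks, and at most 15, 9, 13 and 25. It was called as 1 unbroken peak in 26, 286, 110 and 0 domains. The longest peak filled on average 40.6%, 74.2%, 60.3% and 23.1% of a domain. A single peak of at least 20 kb lay in 108, 552, 339 and 15 of the domains, so KO replicate 2 alone would have passed the length minimum in 53.9% of them and WT replicate 2 in 1.46%. WT replicate 2 thus shared the domains by many short peaks, with a median peak of 1288 bp inside the domains and 836 bp outside, against 8330 and 1534 bp in KO replicate 2.

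**Figure D3:**
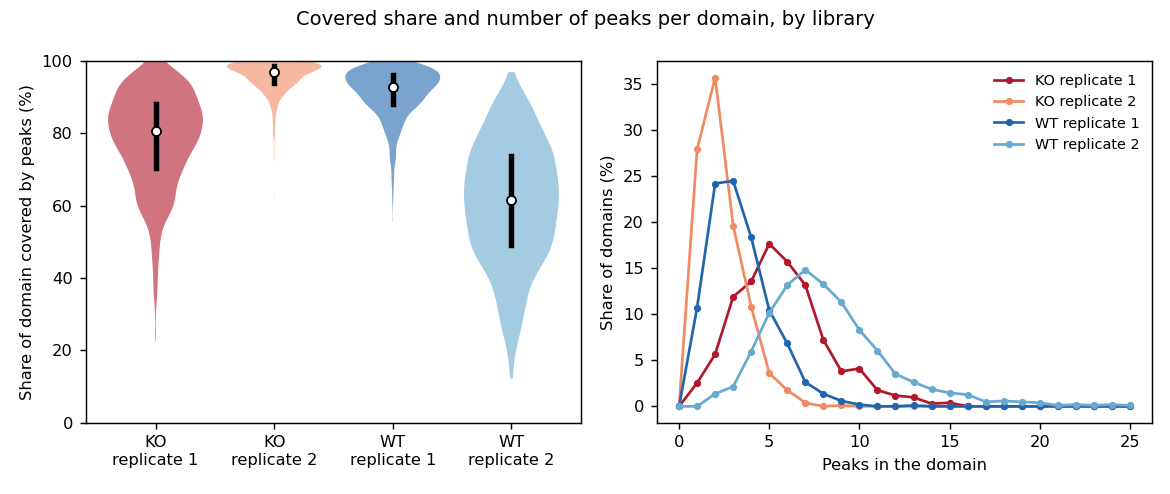
Left, share of each domain covered by peaks (y, %) in each library (x), with violins over the 1024 domains, white points at the medians and black bars from the lower to the upper quartile; right, share of domains (y, %) by number of peaks in the domain (x), 1 line per library. Medians were 80.5%, 97.0%, 93.0% and 61.6%, and the library with the highest coverage had the fewest peaks per domain.

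The outer borders of the domains were set mainly by the libraries that covered most. Of all borders, KO replicate 2 set 935 (45.7%), WT replicate 1 set 666 (32.5%), KO replicate 1 set 348 (17.0%) and WT replicate 2 set 171 (8.35%), with some borders shared. Even so, from its first to its last peak each library reached across 93.5%, 98.5%, 97.2% and 89.0% of a domain on average. What differed was the interior. There were 4793, 1371, 2430 and 7383 gaps between peaks of the same library, with median lengths of 621, 436, 509 and 734 bp. Gaps under 1 kb were 69.9%, 87.6%, 78.9% and 61.6% of them, and the longest gap was 10784, 4468, 5417 and 16557 bp.

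Every domain contained bases covered in all 4 libraries. Such bases made up 54.7% of the domains (16.5 Mb), and bases covered in 3, 2 and 1 libraries made up 25.6%, 13.8% and 5.90%. The most common partial pattern was coverage in all but WT replicate 2 (19.6% of the bases), followed by KO replicate 2 with WT replicate 1 (9.48%). Bases covered in both KO libraries and neither WT library were 2.23%, and the reverse was 0.298%. The common bases were scattered, with a median of 8 stretches per domain and a median longest stretch of 5144 bp. In 143 domains the longest common stretch reached 10 kb and in 10 it reached 20 kb, up to 25913 bp.

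The gaps of the 2 libraries with the lowest coverage often fell in the same places. Of the bases that KO replicate 1 left uncovered, 71.3% were also uncovered in WT replicate 2, which left 38.0% of all domain bases uncovered. Of the bases that WT replicate 2 left uncovered, 38.8% were also uncovered in KO replicate 1, which left 20.7% of all domain bases uncovered. KO replicate 2 left 3.94% of all domain bases uncovered. It left uncovered 10.0% of the gap bases of KO replicate 1 and 7.95% of those of WT replicate 2. These overlaps were not tested. Coverage was lowest at the domain borders in every library: the outer 2 kb at each side were covered to 58.1%, 88.2%, 79.0% and 39.2%, and the rest of the domain to 82.7%, 97.3%, 93.7% and 65.6%. By construction of the merged regions, each border was set by the list that reached farthest.

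The place of the highest signal in a domain varied between libraries. For pairs of libraries, the median distance between the highest points was 787 bp (KO replicate 2 and WT replicate 1) to 2012 bp (KO replicate 1 and WT replicate 2). In 190 domains (18.6%) all 4 libraries had their highest point within 1 kb of each other. The 512 domains with an annotated start site in the promoter table allowed a comparison of these points with start sites. The highest point lay within 1 kb of a start site in 41.2%, 42.4%, 41.2% and 32.6% of these domains, whereas 9.68% of their bases lie that close. Coverage also fell with distance from start sites, from 91.4%, 97.6%, 96.0% and 82.2% within 0.5 kb to 75.04%, 94.9%, 90.4% and 56.8% beyond 8 kb. The fall was steepest in the 2 libraries with the lowest coverage. Coverage was also lowest at the domain borders, and distance from a border was not held fixed here. Its part in the fall was not tested.

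**Figure D4:**
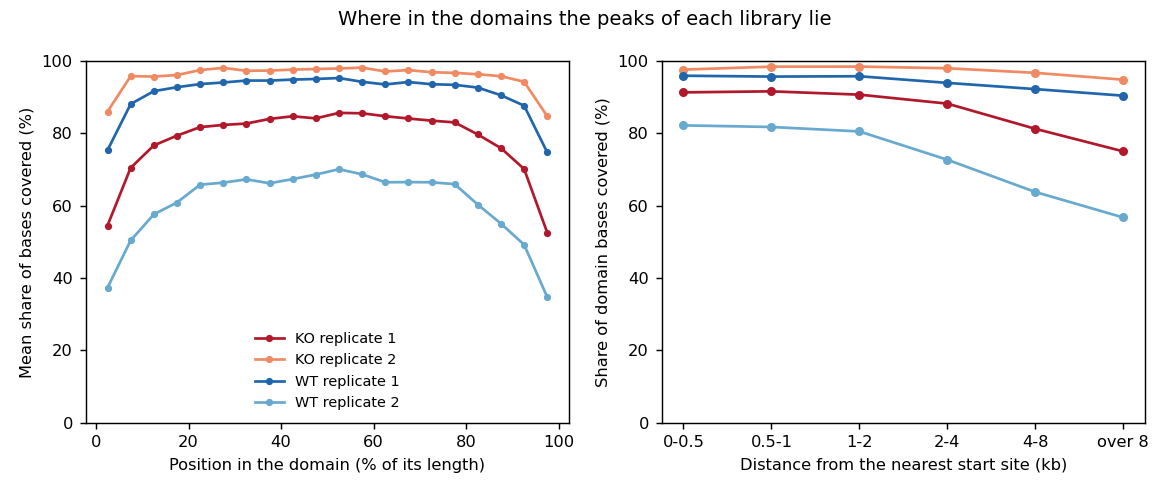
Left, mean share of bases covered (y, %) in 20 equal steps along the domains (x, % of length), 1 line per library; right, share of domain bases covered (y, %) by distance from the nearest start site in kb (x), for domains that hold a start site. Coverage was lowest at both ends of the domains in all 4 libraries and fell with distance from start sites, most in WT replicate 2.

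Within each list the domain peaks ranked high by the authors' signal. The median domain peak stood at percentile 76.4, 92.3, 86.9 and 70.8 of its list by highest signal, against 48.0, 48.8, 48.9 and 47.3 for peaks elsewhere. The domains held 40.4%, 36.1%, 36.6% and 39.5% of the top 1% of peaks. The strongest peak of a domain was among the top 5% of its list in 739, 798, 787 and 689 of the domains. Longer peaks can reach a higher maximum, and this was not corrected for.

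Across the 1024 domains, covered share varied together most in KO replicate 1 and WT replicate 2 (Spearman's rho = 0.757) and least in KO replicate 2 and WT replicate 1 (rho = 0.199). The strongest and the weakest relation each joined a KO library to a WT library. The first pair had the lowest coverage and the second the highest, where little room is left below 100%. Longer domains had slightly higher covered share (rho = 0.172 to 0.253) and more peaks in every library (rho = 0.378, 0.133, 0.250 and 0.5997). These values describe regions of the same 4 libraries.

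Genes were frequent in the domains. Of the 1024 domains, 831 (81.2%) overlapped a protein-coding gene body, against 50.3% of the shared regions under 20 kb, which are shorter and so have less chance to reach a gene. A domain overlapped 1 gene in 546 cases, 2 or 3 in 261 and at least 4 in 24, with at most 7 (the Hoxc, Hoxb and Hoxa domains). At least 1 gene lay wholly inside 352 domains (34.4%), and 126 domains (12.3%) lay wholly inside the body of a gene. In all, 1153 of 20665 autosomal protein-coding genes (5.58%) overlapped a domain and 457 (2.21%) lay wholly inside it.

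Of the other 193 domains, 110 overlapped a long non-coding RNA or microRNA gene and 83 overlapped none of these classes. The nearest protein-coding gene was a median of 23.0 kb away, and more than 100 kb away for 19 domains. The longest domain with no annotated gene of these classes, 52516 bp at chr8:115374511-115427026, lay 21799 bp from Wwox, an oxidoreductase gene. It was covered to 82.4%, 95.8%, 97.6% and 54.5% by 11, 5, 5 and 20 peaks. The others among the 5 longest lay 61212 bp from Bcl2l11, the gene of the apoptosis activator Bim (chr2:128223759-128263376), 40931 bp from the histone deacetylase gene Hdac4 (chr1:92236633-92275345), 9584 bp from Rybp (chr6:100296942-100335178) and 6804 bp from Dagla, a lipase gene (chr19:10311681-10349652).

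Developmental transcription factors were the families most often in a domain. Of 39 Hox genes, 30 (76.9%) overlapped a domain and 24 lay wholly inside, against 5.58% and 2.21% of all genes. The Hox genes lay in 8 domains of a median 49.3 kb. The Hoxa domain (chr6:52205166-52260334), with Hoxa3, Hoxa6, Hoxa7, Hoxa9, Hoxa10, Hoxa11 and Hoxa13, was covered to 98.1%, 97.5%, 97.6% and 90.3% by 3, 3, 2 and 5 peaks. Of the Hoxd genes, Hoxd11, Hoxd10, Hoxd9 and Hoxd8 overlapped a domain at chr2:74683050-74704971 (97.2%, 98.3%, 93.7% and 74.6%). Hoxd8, Hoxd3 and Hoxd4 overlapped another at chr2:74705778-74755446 (94.5%, 98.9%, 99.03% and 86.1%). The other Hoxd genes overlapped no domain. Hoxb13 had a domain of 48949 bp (chr11:96161796-96210744; 94.96%, 98.3%, 97.4% and 92.1%), and a further domain lay over Hoxb3 alone (chr11:96326447-96347136), which was filled less, to 70.8%, 96.9%, 84.7% and 53.0%.

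Of 120 homeobox factors outside the Hox clusters, 64 (53.3%) overlapped a domain and 50 lay wholly inside. They included neural factors (Pax6, Otx2, Emx2, Dlx1, Dlx2, Dlx5, Lhx2), factors of muscle, heart and craniofacial tissue (Nkx2-5, Msx1) and factors of gut and spleen (Cdx2, Nkx2-3, Tlx1). The whole bodies of Bsx, Nkx1-2, Msx3, Mnx1 and Barhl1 were covered to 100% in all 4 libraries. The body of Tlx1, a factor required for the spleen to form, was covered to 100%, 100%, 100% and 98.0%.

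Of the 5 Gata factors, 4 overlapped a domain (Gata2, Gata3, Gata4 and Gata5). Smaller shares, all above the 5.58% of all genes, were found in other families of developmental regulators: 5 of 15 T-box factors (Tbx1, Tbx2, Tbx3, Tbx4 and Tbx15), 5 of 18 Sox factors (Sox4, Sox7, Sox8, Sox10 and Sox13), 11 of 41 forkhead factors (among them Foxa2, Foxb1, Foxf1, Foxf2 and Foxl1) and 10 of 38 developmental basic helix-loop-helix factors (among them Tal1, Ascl2, Hand1, Olig1 and Olig2). Of the secreted Wnt, Fgf and Bmp ligands, 16 of 59 overlapped a domain, including Wnt1, Wnt3, Wnt3a, Wnt6, Wnt10a and Fgf17. Wholly inside lay 2 Gata, 0 T-box, 4 Sox, 9 forkhead and 10 basic helix-loop-helix factors and 5 of the ligands, against 2.21% of all genes. Tbx2 had only 3.75% of its body in a domain. Foxb1, Foxa2, Hand1, Ascl2 and Wnt1 were covered to 100% of their bodies in every library. Of the voltage-gated potassium, sodium and calcium channel genes, 24 of 109 (22.0%) overlapped a domain, but 4 lay wholly inside. These are long genes, with a median body of 48.0 kb against 17.5 kb for all genes, and long bodies are more likely to touch a domain.

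Large gene clusters of other kinds had few or no domains. None of 1104 olfactory receptor genes and none of 57 clustered protocadherin genes overlapped a domain, and 5 of 386 Zfp zinc finger genes did (1.30%). Olfactory receptor bodies are short, with a median of 950 bp against 17491 bp for all genes, and so are less likely to touch a domain. Of the 57 protocadherin genes, which share much of their bodies, 34 overlapped a shared region under 20 kb instead. None of 18 housekeeping genes overlapped a domain or a shorter shared region. Of all 20665 protein-coding genes, 6316 overlapped a shorter shared region and no domain. At the 5.58% of all genes in a domain, lists of 18 or 57 genes would hold few. The zeros in domains therefore do not set the housekeeping and protocadherin genes apart.

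**Figure D5:**
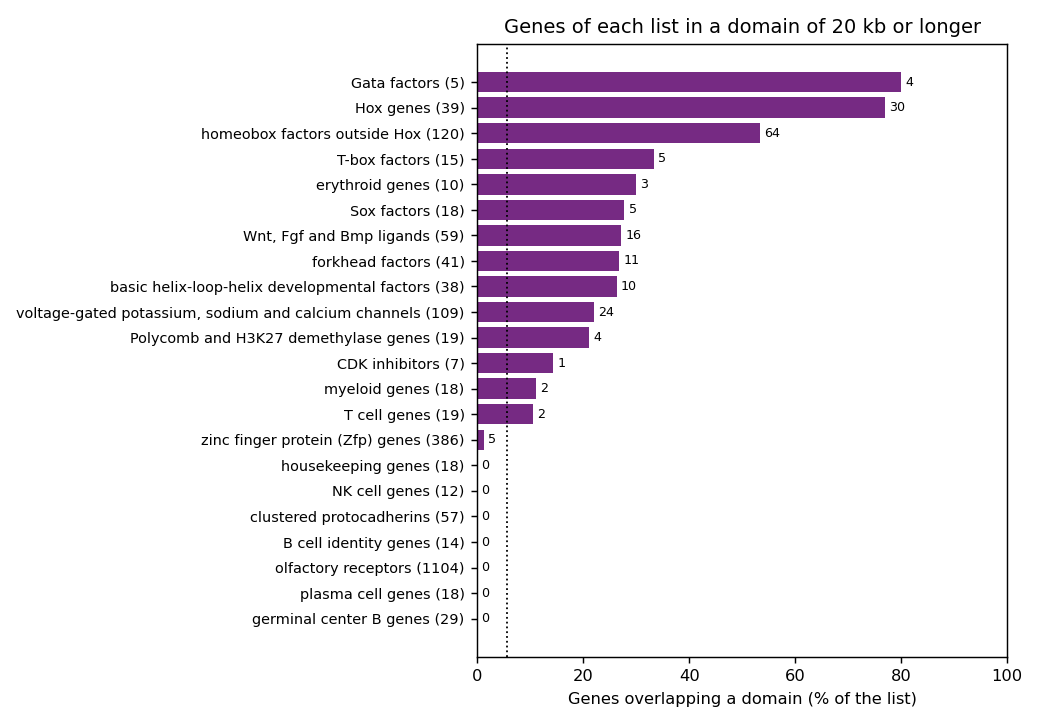
Share of each gene list that overlaps a domain (x, %), with the number of genes in the list in parentheses and the number that overlap printed at each bar; the dotted line is the share of all protein-coding genes, 5.58%. Gata, Hox and other homeobox genes stand highest, and the B-cell lists, the olfactory receptors and the housekeeping genes are at 0.

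None of 29 germinal center B genes, 18 plasma cell genes and 14 B cell identity genes overlapped a domain. At the 5.58% of all genes that did, lists of this size would hold few, so these zeros do not set the lists apart. Of them, 2 germinal center B genes, 7 plasma cell genes and 0 B cell identity genes overlapped a shared region under 20 kb. Of all 20665 protein-coding genes, 6316 overlapped such a region and no domain. The 6 defining germinal center markers, among them Bcl6, S1pr2 and Fas, had a median body coverage of 0%, 0.170%, 0% and 0%, and 6 general B cell markers had 0%, 9.13%, 0% and 0%. Of the plasma cell markers, with medians of 1.85%, 2.50%, 4.21% and 0%, none overlapped a domain either. T cell and myeloid markers had higher medians. The 8 T cell markers had median body coverage of 68.6%, 61.9%, 73.5% and 37.2%, and the 6 myeloid markers 75.1%, 87.4%, 68.3% and 46.3%. The 5 natural killer markers had 4.25%, 52.6%, 17.9% and 0%. The 5 erythroid markers had a median of 0% in every library, though Tal1 lay in a domain. Gata1 and Alas2 of this list lie on chromosome X, and only autosomal peaks were counted, so both were 0% by construction. The erythroid median is therefore not comparable with the others.

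Of genes of other blood lineages, 2 of 19 T cell genes, 2 of 18 myeloid genes, 3 of 10 erythroid genes and 0 of 12 natural killer genes overlapped a domain, against 5.58% of all genes. Gata3, the transcription factor of T helper 2 and early T cells, had a domain of 43047 bp (chr2:9867139-9910185) covered to 88.8%, 97.4%, 96.7% and 80.7%. Cd4, the T cell co-receptor gene, with 15.7% of its body, shared a domain with P3h3 and Gpr162 (chr6:124844177-124868381; 91.5%, 99.9%, 98.5% and 90.2%). Fcgr1, the high-affinity IgG receptor gene of myeloid cells, lay in a domain covered to 71.6%, 92.3%, 96.3% and 54.8% (chr3:96280535-96310700). Of the erythroid genes, Tal1 lay in chr4:115046602-115076455 (87.7%, 96.7%, 88.7% and 79.1%), the alpha globin genes Hba-x, Hba-a1 and Hbq1b in chr11:32274011-32296433 (72.7%, 87.6%, 90.3% and 55.0%) and Slc4a1, the red cell anion exchanger, in chr11:102341928-102367181 (77.4%, 87.6%, 94.6% and 70.4%). Reads of near-identical globin copies cannot be assigned with certainty, so the globin values are uncertain. WT replicate 2 was the lowest library in each of these 6 domains.

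Among cell cycle inhibitors, Cdkn1c, which encodes p57 and is imprinted, was the 1 of 7 in a domain. It shared the domain with Slc22a18 (chr7:143452000-143481883, covered to 90.8%, 99.8%, 96.9% and 66.9%). A list of 7 genes is too small to be told apart from the 5.58% of all genes. Of 19 genes for Polycomb proteins and H3K27 demethylases, 4 (21.1%) overlapped a domain, against 5.58% of all genes. They were Cbx7 and Cbx8, which encode readers of the mark, Pcgf1, and Kdm6b itself. Of these only Cbx8 lay wholly inside, and Cbx7 had 38.6% of its body in a domain. This share was not tested. The Kdm6b domain (chr11:69406856-69426906, 20051 bp, with part of Dnah2) took in 13512 bp, 61.8%, of the Kdm6b body. KO coverage of it was 76.1% and 100%, from 5 peaks and 1 peak, and WT coverage 82.5% and 58.7%, from 3 and 7 peaks, so the genotypes overlapped. A map of this mark holds no measure of the deletion and does not check the genotype.

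Domains with a listed developmental factor had the largest share of bases common to all libraries. In these 106 domains a median of 73.4% of the bases was covered in all 4 libraries, and 81.2% in the 8 with a Hox gene. The median was 52.5% in the 725 domains with other protein-coding genes only and 43.1% in the 193 without one. The difference was widest in the libraries with low coverage: median covered share was 89.5%, 97.9%, 94.96% and 76.4% in domains with a developmental factor, and 77.6%, 96.8%, 91.0% and 54.6% in those without a protein-coding gene. Domains with a developmental factor were also slightly longer, with a median of 28.8 kb against 25.3 kb in those without a gene. The difference between the classes was not tested.

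The 5 domains with the highest mean coverage held the homeobox genes Gsx2 (chr5:75066525-75088939) and Hlx (chr1:184715477-184741666), Wnt1 with Ddn (chr15:98784913-98810291), the class Ib MHC gene H2-T3 (chr17:36176473-36222574) and, without a protein-coding gene, Mir9-1 (chr3:88190751-88234599). Even WT replicate 2 covered 91.1% to 96.9% of each. The Wnt1 domain was 1 peak in KO replicate 1, KO replicate 2 and WT replicate 1 and 2 peaks in WT replicate 2. The 5 with the lowest mean coverage lay over Scube1 (chr15:83635880-83656416), Krt80, a keratin gene (chr15:101357262-101390821), Elapor1 (chr3:108476615-108496961), the neuronal kinase gene Camk2a (chr18:60940532-60961248) and chr13:63661546-63684693, which had no protein-coding gene. The Elapor1 domain had the lowest mean of all, from 45.4%, 89.5%, 64.7% and 22.6%. The Scube1 domain was next, from 22.4%, 88.6%, 96.1% and 15.2%, so it owed its length to 1 KO and 1 WT library.

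Promoters inside the domains were covered more fully than the domains around them. Of 20085 promoters in the RefSeq table, 777 promoters of 628 genes (3.87%) lay wholly in a domain. Chromosome 18 was not used here for promoters or microRNAs. Mean coverage of these promoters was 92.3%, 97.8%, 96.2% and 82.6%, against 79.3%, 96.1%, 91.7% and 62.0% of all domain bases. The domain bases include the less covered borders, and distance from a border was not held fixed. In 624 promoters (80.3%) at least 50% of the bases was covered in every library, and in 18 this was so in 1 library alone.

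The promoters in domains had a median of 17 CG in their 300 bases (quartiles 8 and 25), against 14 for all promoters, and 68.9% had at least 10, against 57.9% of all promoters. Promoters in shared regions under 20 kb had a median of 16, those in regions missing from at least 1 list had 18, and those not wholly in any region had 9. Within the domains, coverage did not follow CG content in 1 direction. In KO replicate 1 mean coverage was lowest, at 88.8%, for promoters with up to 9 CG. In WT replicate 2 it was 77.0% for the 242 promoters with up to 9 CG, 88.3% for 203 with 10 to 19, 87.7% for 214 with 20 to 29 and 74.7% for 118 with 30 or more. The most CG-rich promoters that 1 library alone covered by at least 50% were those of Apba1 (57 CG, KO replicate 2) and of Grik3 (50), Skor1 (46) and Cacna2d2 (43), the last 3 in KO replicate 1. Grik3 encodes a kainate receptor subunit, Skor1 a neural corepressor and Cacna2d2 a calcium channel subunit.

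MicroRNA genes are short, so they are set beside 2 shares of protein-coding genes: 5.58% overlapped a domain and 2.21% lay wholly inside one. Of 980 autosomal microRNA genes in the RefSeq table, 50 (5.10%) lay in a domain, spread over 38 domains, and 34 of them were wholly covered in all 4 libraries. Mir196a-1, Mir196a-2, Mir196b, Mir10b, Mir615, Mir9-1 and Mir9-3 were among these 34. Mir10a in the Hoxb domain was wholly covered in KO replicate 1 and WT replicate 1 but not in KO replicate 2 or WT replicate 2. Others wholly covered in every library were Mir126a, known from endothelium, Mir203 of the skin, Mir375 of pancreatic islets and Mir675, which is processed from the imprinted H19 transcript.

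No domain was called different between the genotypes, but the test used could not call differences of the size seen here. Over the domains, mean covered share was 87.0% ± 12.4 (SD, n = 2) in KO and 75.9% ± 21.7 (SD, n = 2) in WT, a difference of 11.1 percentage points that was smaller than the SD of either genotype. Domains held 4.01 ± 2.36 peaks in KO and 5.79 ± 3.42 in WT (SD, n = 2 each), and the longest peak filled 57.4% ± 23.8 and 41.7% ± 26.3 of a domain. The median difference, KO minus WT, was 10.3 points over the domains and 11.5 points over all merged regions. Over the same 1024 domains, the mean difference turned to -4.22 points when WT replicate 2 was left out. It fell to 2.38 points without KO replicate 2, so the direction depended on WT replicate 2.

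Covered share of each merged region was compared with limma, with p-values adjusted over all 116146 regions by the Benjamini-Hochberg method. At an adjusted p under 0.05, limma called 0 of 116146 regions (0%) higher and 0 (0%) lower in KO, and so 0 of the 1024 domains in either direction. The smallest adjusted p among the domains was 0.726. At an unadjusted p under 0.05, 715 regions (0.616%) were higher and 216 (0.186%) lower in KO, and none of these was a domain. Both KO libraries were above both WT libraries in 85 domains (8.30%), against 9.41% of all regions. Both KO libraries were below both WT libraries in none of the domains, against 2.97% of all regions. The spread between the 2 mice of a genotype, pooled over all regions, gave the same standard error of 44.7 points for every region. The largest difference in a domain, 38.1 points, was smaller than this standard error, so no domain could be called even without adjustment. Over all regions the smallest adjusted p was 0.528 by limma. The absence of calls therefore does not show that the domains were alike in the 2 genotypes.

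The 6 largest differences towards KO were in domains where WT replicate 2 had the lowest coverage. In the Camk2a domain coverage by the KO libraries was 51.6% and 99.8%, and by the WT libraries 60.2% and 14.9%, a difference of 38.1 ± 44.7 points (SE; adjusted p = 0.726 by limma). The groups overlapped, as KO replicate 1 was below WT replicate 1. The domain over part of Fcrl5, a surface receptor of the Fc receptor-like family on B cells (chr3:87493789-87513895), had KO coverage of 90.4% and 100% and WT coverage of 94.98% and 24.96%, with a difference of 35.2 points (adjusted p = 0.771). Without WT replicate 2 this difference was 0.224 points. Next came the domains over 2900026A02Rik (34.96 points), at chr10:78133879-78156294 without a protein-coding gene (34.6), over Sort1, a sorting receptor gene, with Mybphl (34.4) and at chr1:177421759-177442272 beside Zbtb18 (34.4).

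The 6 most negative differences were smaller in size, and in 5 of these domains leaving out 1 library turned the direction; the Entpd2 and Npdc1 domain stayed negative. The most negative domain lay over Tmem37 (chr1:120066288-120092755), where KO coverage was 38.7% and 80.7% and WT coverage 92.4% and 47.0%, a difference of -9.98 points (adjusted p = 0.981 by limma). In the Ndrg2, Tppp2 and Rnase13 domain (chr14:51904454-51925044), KO coverage was 42.1% and 84.5% and WT coverage 99.2% and 39.98%, with a difference of -6.32 points. Leaving out WT replicate 1 turned these differences to 12.7 and 23.3 points, and leaving out KO replicate 1 to 11.0 and 14.9 points. The others among the 6 most negative lay over Sorcs2 (-7.52 points), at chr9:20527573-20555777 without a protein-coding gene (-4.43), over Entpd2 and Npdc1 (-4.40) and over Nav2 (-3.97). In every one of these 6 domains WT replicate 1 had the highest coverage.

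The domains also kept more of their coverage than shorter regions when the lists were made equal in covered length. Peaks with the lowest maxima were removed from each list until its covered length was at most that of WT replicate 2, which left 41979, 16496, 20783 and 81484 peaks. Mean covered share of the domains was then 71.7%, 87.5%, 81.0% and 60.6%, and that of the shared regions under 20 kb 40.3%, 35.6%, 36.9% and 43.3%. WT replicate 2 was thus the lowest library in the domains and the highest in the shorter regions. Its list lost no peak, and the shorter regions were chosen to hold a peak of it. Its place as the highest library there therefore follows in part from the trimming. The domain means were then 79.6% ± 11.1 for KO and 70.8% ± 14.4 for WT (SD, n = 2 each), a difference of 8.83 points that was smaller than either SD. Long peaks can have higher maxima, and this was not corrected for here either.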

How the data were processed

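H3K27me3 was mapped by CUT&Tag in 4 libraries, 2 KO and 2 WT, grouped by the genotype label. The authors deposited 1 peak list per library, with the position, total signal, highest signal and place of that maximum for each peak. The tools named in the submitters' processing notes are SEACR, deepTools, Bowtie2 2.4.2, SAMtools 1.11 and Trim Galore 0.6.6, and the build is mm10. How SEACR was set and how the signal was scaled is not given in the sources used here, so signal served only to rank peaks within a list. Read depth was unknown, and no counting interval was computed for coverage.

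Peaks were merged and measured in Python 3.11.15 with pandas 2.3.3, numpy 2.4.6 and scipy 1.17.1. Plots were made in matplotlib 3.10.9. A domain was a merged autosomal region of at least 20 kb that overlapped a peak in all 4 lists by at least 1 bp. The covered share is the percentage of a region's bases under peaks of a library, and a gap is an uncovered stretch between peaks of the same library. Covered share was compared over all merged regions by limma 3.58.1 under R 4.3.3, using lmFit and eBayes with no trend and no covariate, and regions were called at a Benjamini-Hochberg adjusted p under 0.05. The interval and limma steps were tested on simulated data. The spread simulated for limma was smaller than that of the real lists, so this check does not show that differences here could be found. No p was computed for a score over the domains, because the peaks chose them.

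Genes, promoters and microRNAs came from RefSeq on GRCm38.p6. The gene table has no strand, so gene bodies were used, and exons, introns and UTRs were not used here. The sequence tables do not cover every gene. All listed markers were found in the gene table, but their coverage was taken from autosomal peaks alone.

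The named domains were the 10 longest, the 5 with the highest and the 5 with the lowest coverage, the 3 on either side of 20 kb, those with most and fewest peaks, the 5 with most genes, the 5 longest without a gene, the 6 largest differences in each direction, those with Hox genes or members of the blood cell and cell cycle inhibitor lists, and Kdm6b. Other genes of the lists and the printed promoters and microRNAs are examples picked after their values were seen. Values of some members that met these rules are not reported here. The members and the gene lists were chosen with earlier results of these data known. The alternatives changed the length minimum, the peak threshold, the covered length, the sharing rule, the merging gap, the chromosomes, the limma settings and the libraries included.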

Additional observations from a re-analysis of the deposited data

How the results depend on the processing

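The number of domains, 1024, followed the length minimum and the merging: it was 4503 at 10 kb, 53 at 50 kb and 3160 when peaks up to 1000 bp apart were merged. With 1 library left out it ranged from 561 to 990, with 561 without KO replicate 2. It was 950 with peaks at or above the median maximum of each list, 880 at equal covered length, 1002 with at least 25% covered in each list and 1026 with X and Y. The share with a protein-coding gene, 81.2%, was 71.8% at 10 kb, 77.0% with the wider merging and 81.6% to 84.8% with 1 library left out. Peaks per domain rose to 10.5 in WT at 50 kb and to 7.62 in KO with the wider merging. The KO minus WT difference in covered share was taken over the domains found anew in each setting. It was 9.70 to 13.2 points under the settings that kept all libraries and -4.27 to 24.7 points with 1 library left out.

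limma called 0 domains in all 11 settings. At an unadjusted p under 0.05 the counts of higher and lower domains were 30 and 1 at equal covered length, 3 and 0 with the stricter threshold, 2 and 0 without KO replicate 1, 76 and 0 without WT replicate 1, and 1 and 1 without WT replicate 2. Over all regions, where the full fit called none, 17 were called higher and 34 lower at equal covered length and 73 and 30 with the stricter threshold. With 1 library left out, and its genotype's other mouse assumed to vary like the remaining pair, 297 to 21749 were called higher and 56 to 15424 lower. Of the 120 differences of the 12 domains with the most positive or most negative values under other settings, 108 kept their direction and 12 did not. With the stricter threshold these were the Tmem37 domain (15.2 points), the Entpd2 and Npdc1 domain (0.424) and chr9:20527573-20555777 (0.722). With 1 library left out the range was -32.7 to 12.7 points for the Tmem37 domain, -35.9 to 23.3 for the Ndrg2 domain, -17.6 to 2.58 for the Sorcs2 domain, -34.5 to 26.5 for the Nav2 domain and -18.6 to 9.72 for chr9:20527573-20555777, while the Entpd2 and Npdc1 domain stayed negative (-8.77 to -0.0214). No paired analysis was possible because the labels number no replicates, and the numbers used here only name the mice.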
